A study of Mus musculus with 2 samples.

Results

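The genes described here are a small set of ligand-activated nuclear receptors and the lipid chaperones that serve them. They are the PPAR family (*Pparg*, *Ppara* and *Ppard*), the retinoid X receptors *Rxra* and *Rxrb*, the retinoic acid receptor *Rara*, the vitamin D receptor *Vdr*, the glucocorticoid receptor *Nr3c1*, and the fatty acid-binding proteins *Fabp4* and *Fabp5*. They were chosen by name, for their place in lipid and steroid sensing, and account for 10 of the 20659 genes that could be named on the array and for 15 of its 27234 named probes. The gene microarray was run on RAW264.7 cells, an established macrophage line from a tumour that Abelson murine leukemia virus induced in a male adult BALB/c mouse. A culture given vehicle control was set against a culture given IR-61, a lipophilic, positively charged near-infrared heptamethine cyanine dye, both for 24 h in DMEM that held 10% heat-inactivated serum. The study's figure legend gives the dose as 10 μM. Each condition was 1 culture read on 1 single-colour Agilent mouse array, both on 1 slide and read in 1 scan run, so no test between the conditions was possible and no p-value is given. The comparison asks how expression of these receptors and chaperones in a macrophage line differed after exposure to the dye.

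Nuclear receptors are transcription factors that a lipid-soluble ligand switches on or off. PPARs bind fatty acids and their derivatives, retinoic acid receptors bind retinoic acid and the vitamin D receptor binds calcitriol, and each pairs with a retinoid X receptor on DNA, typically on repeats of a hexamer close to AGGTCA. The glucocorticoid receptor instead waits in the cytoplasm on heat shock chaperones and acts largely as a homodimer on a different element. FABP4 and FABP5 carry fatty acids through the cytosol, including to PPARs, and both are abundant in macrophages, where PPARγ is known as a regulator of lipid uptake and of alternative activation.

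Promoter windows of the receptors, 250 bases that end just before an annotated start, were taken from RefSeq (mouse assembly GRCm38.p6) and searched for AGGTCA on either strand. Windows were found for 7 of the 10 genes, all but *Nr3c1*, *Fabp4* and *Fabp5*. Of their 14 windows 3 held the hexamer, against 14.0% of all 32851 windows in the table. These 3 were a pair of *Pparg* windows and 1 of *Rxra* at chr2:27709042-27709291, which held 2 copies, the first 87 bases before the start and the next 48. Shown here are both *Pparg* windows with the hexamer, because *Pparg* had the highest difference of the set by the brightest probe of each gene, and the window of *Vdr*, which had the lowest. All are written 5′ to 3′ along the strand of the gene, with the hexamer in capitals.
Pparg, chr6:115360894-115361143, plus strand: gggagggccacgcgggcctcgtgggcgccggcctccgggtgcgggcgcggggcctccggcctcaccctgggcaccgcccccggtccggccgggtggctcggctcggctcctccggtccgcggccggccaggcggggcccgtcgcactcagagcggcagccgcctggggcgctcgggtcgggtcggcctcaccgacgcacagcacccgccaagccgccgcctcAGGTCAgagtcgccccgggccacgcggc
Pparg, chr6:115362099-115362348, plus strand: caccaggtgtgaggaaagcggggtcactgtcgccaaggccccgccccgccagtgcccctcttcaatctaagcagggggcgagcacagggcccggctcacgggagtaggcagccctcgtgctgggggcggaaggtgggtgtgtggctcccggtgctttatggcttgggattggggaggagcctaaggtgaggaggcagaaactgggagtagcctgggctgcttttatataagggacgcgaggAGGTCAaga
Vdr, chr15:97908297-97908546, minus strand: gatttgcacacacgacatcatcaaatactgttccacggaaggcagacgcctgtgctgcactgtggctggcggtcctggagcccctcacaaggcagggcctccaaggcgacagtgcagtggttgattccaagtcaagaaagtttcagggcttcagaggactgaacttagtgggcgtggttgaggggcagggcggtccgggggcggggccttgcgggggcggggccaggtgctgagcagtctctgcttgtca
In the first *Pparg* window the hexamer began 28 bases before the start and in the other 9 bases before it. The remaining *Pparg* window, chr6:115421816-115422065, and that of *Vdr* held no copy. A match of these letters is a description of the window and not a binding site.

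The authors deposited the background-subtracted intensity of every spot. For each probe the signal is given here in these arbitrary fluorescence units, before any scaling. A log2 difference is IR-61 minus vehicle after the 75th percentile of each array, 10.30 for vehicle and 10.79 for IR-61 on the log2 scale, was subtracted, so that it is relative to the level of the array as a whole. The IR-61 array was thus the brighter by 0.49, and without scaling the median over all genes moved from 0.10 to 0.59. Across the 16889 genes well above background on both arrays, the median log2 difference was 0.10, the SD across genes 0.45 and the middle 50% lay between −0.15 and 0.34. The only error these arrays give is the SD between spots of probes printed many times. Above a log2 signal of 10 this SD was 0.070 (vehicle) and 0.063 (IR-61), between 6 and 10 it was 0.180 and 0.146, and under 6 it was 0.328 and 0.266. The error given beside a difference is the SD expected from these values for that probe on both arrays. It does not include the difference between cultures.

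All 10 genes were well above background on both arrays through at least 1 probe. Taking the brightest probe of each gene, the log2 difference was positive for 7 and negative for 3. Of all measured genes 61.1% had a difference of −0.00032 or higher, so a majority of positive values was common on these arrays. Counts of each sign given below are to be read beside that share. The median of the 10 genes was 0.39. That was 0.29 above the median of all measured genes, and 6 of the 10 lay above the latter. By the brightest probe, *Pparg*, *Ppard*, *Rxrb*, *Nr3c1*, *Fabp4* and *Rxra* were higher with IR-61 and *Vdr* was lower. *Ppara*, *Rara* and *Fabp5* differed by little on that probe. The dimmer measured probes of *Rxra* and *Nr3c1* were at −0.13 and −0.24, that of *Rara* at −0.83 and that of *Ppara* at 0.79. The only gene beyond 2-fold was *Vdr*, which was lower, where 1.40% of all measured genes were lower by as much. None was higher by 2-fold, against 2.0% of all genes. At a limit of 1.5-fold 1 gene was lower, again *Vdr*, beside 5.70% of all genes, and 1 was higher, *Pparg*, beside 9.79%. *Ppard* and *Rxrb*, each close to 1.5-fold at 1.499 and 1.496, lay just under that limit. For 8 genes the difference exceeded the SD expected from spots, and for 6 it was more than 2 times that SD. The share of all measured genes that passes these limits was not counted. Across all genes the SD, 0.45, was itself above the SD from spots of each brightest probe here. These counts are therefore not a result particular to the 10 genes.

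**Figure D1:**
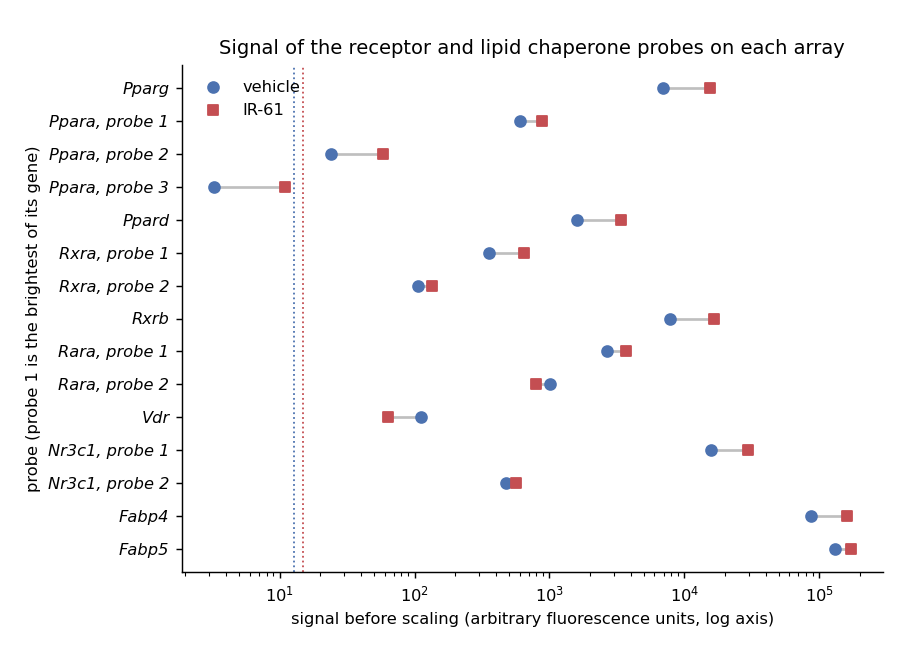
Signal of each probe before scaling on the vehicle array (blue circles) and the IR-61 array (red squares), in arbitrary fluorescence units on a log axis; dotted lines mark the lowest signal among probes well above background, 12.8 for vehicle and 15.0 for IR-61. The third *Ppara* probe lies left of both lines, and among the others *Vdr* and the second *Rara* probe are those with a lower raw signal on the IR-61 array.

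Among the PPARs, *Pparg*, the receptor that drives adipocyte formation and lipid handling in macrophages, had the best measured value, because its probe is printed 10 times on each array. With vehicle its spots read between 6353 and 7499, with a median of 6912. With IR-61 they read between 14919 and 16671, with a median of 15262. No spot of the IR-61 array was as low as any spot of the vehicle array. After scaling, the log2 signal was 2.46 ± 0.07 with vehicle and 3.12 ± 0.06 with IR-61 (mean ± SD, 10 spots on each array). The scaled spots ran from 2.33 to 2.57 and from 3.07 to 3.23, so the separation was still complete once the brighter IR-61 array had been scaled down. The log2 difference was 0.67, a 1.59-fold higher signal. The SD expected from spots was 0.030 for a mean of 10 spots on each array. Of all measured genes 6.96% had a difference as high. These are spots of 1 culture per condition, so their separation says nothing about the spread between cultures. How many other probes printed many times also separated in full was not counted. In bulk RNA more cells of a type and more RNA per cell cannot be told apart. By qPCR in bone marrow-derived macrophages, other cells than these, the study saw no obvious change with IR-61 in fatty acid oxidation genes. *Pparg* and *Ppara* were among them.

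**Figure D2:**
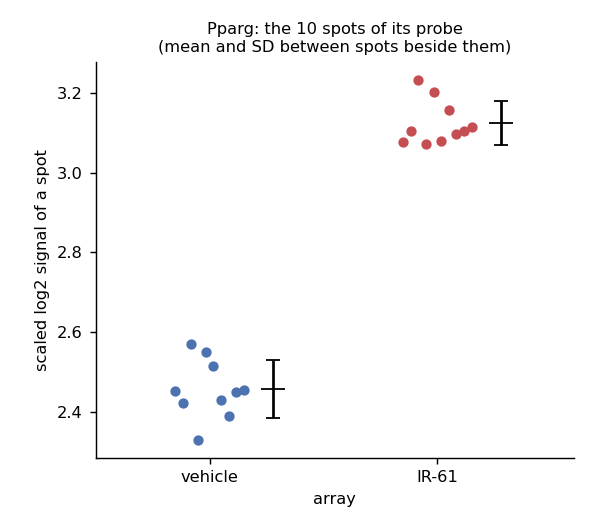
Each point is 1 of the 10 spots of the *Pparg* probe on an array, as log2 signal minus the 75th percentile of that array; the horizontal line and bar beside the points are the mean and SD between spots. The vehicle spots lie between 2.33 and 2.57 and the IR-61 spots between 3.07 and 3.23, with no overlap.

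*Ppard*, the widely expressed family member that governs fatty acid oxidation in muscle and macrophages, read 1603 with vehicle and 3372 with IR-61. Its log2 difference was 0.58 (SD from spots 0.095), a 1.499-fold higher signal, and 9.82% of all genes were as high. *Ppard* thus stood beside *Pparg*, above the middle 50% of all genes. *Ppara*, the receptor of hepatic fatty acid oxidation and ketogenesis, was read by 3 probes that did not give 1 answer. The brightest read 601 with vehicle and 876 with IR-61, a log2 difference of 0.05 (SD from spots 0.23), and was the 1 PPAR value below the median of all genes. The next read 24.1 and 58.3, a difference of 0.79 with an SD from spots of 0.42. The remaining probe, at 3.26 and 10.9, was not well above background with either treatment and gives no difference. For *Ppara* the arrays therefore hold a well measured probe near 0 and a dim one that was higher, 0.73 apart, where the SD expected from spots for such a gap is 0.48. With scaling by the median of the array the brightest probe came to −0.03 in place of 0.05.

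*Rxrb* and *Rxra* encode the shared partners of the PPARs and of the retinoic acid, vitamin D and several other receptors. *Rxrb* read 7830 with vehicle and 16441 with IR-61. The log2 difference was 0.58 (SD from spots 0.095), a 1.496-fold higher signal, which 9.93% of all genes reached. It was close to that of *Ppard*, with the same expected error. *Rxra* had 2 probes. The brighter read 356 and 647, a log2 difference of 0.37 (SD from spots 0.23) or 1.29-fold higher. The dimmer read 105 and 135, a difference of −0.13 (SD from spots 0.23), so the sign for *Rxra* depended on the probe. The gap of 0.50 between them compares with an SD of 0.33 expected from spots. *Rxrg*, the remaining retinoid X receptor, which is not one of the 10 genes, read 5056 and 8704 and had a difference of 0.29, and its dimmer probe, at 21.0 and 59.0, was 2.01-fold higher (SD from spots 0.42 on the log2 scale).

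*Rara* mediates the response to retinoic acid, itself a signal in myeloid differentiation. Its brighter probe read 2646 with vehicle and 3682 with IR-61. The log2 difference was −0.01 (SD from spots 0.095), and 62.4% of all genes were as high. Its sign followed the processing, since the value was 0.48 with no scaling and 0.0035 with a trend over rows and columns removed. Its dimmer probe read 1013 and 799, a difference of −0.83 (SD from spots 0.23) or 1.78-fold lower. The probes stood 0.82 apart, against 0.25 expected from spots, so for *Rara* a value near 0 and a lower one stand side by side.

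*Vdr*, through which calcitriol acts on calcium transport and on antimicrobial genes of macrophages, was the gene that stood apart. Its single probe read 113 with vehicle and 63.9 with IR-61. It was the 1 gene of the set whose brightest probe was lower on the IR-61 array even before scaling. The log2 difference was −1.31, a 2.47-fold lower signal, and 0.687% of all measured genes were as low. The probe is dim and was read from 1 spot on each array. The SD expected from spots, which comes from other probes, was 0.32, so that the difference was 4.06 times this SD. The direction was negative under all 13 settings tried, the main one included, but the size was −0.95 with normexp background correction and −0.82 with no scaling, both short of 2-fold.

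*Nr3c1*, the receptor through which glucocorticoids dampen inflammation, had 2 probes. The brighter read 15639 with vehicle and 29533 with IR-61, a log2 difference of 0.43 (SD from spots 0.095) or 1.35-fold higher. The dimmer read 476 and 564, a difference of −0.24 (SD from spots 0.23). As with *Rxra* the probes differed in sign, and their gap of 0.67 compares with 0.25 expected from spots. Which of the probes reads the main transcript was not tested, because the files hold neither probe sequences nor positions.

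Both lipid chaperones gave strong signals on each array. *Fabp4*, the adipocyte and macrophage fatty acid-binding protein and a classical PPARγ target, read 86908 with vehicle and 161031 with IR-61. The log2 difference was 0.40 (SD from spots 0.095), a 1.32-fold higher signal, and 19.8% of all genes were as high. *Fabp5*, the epidermal type that is also expressed in macrophages, read 130904 and 171122. Its log2 difference was −0.10 (SD from spots 0.095), 1.07-fold lower, and its sign turned under 4 settings, at 0.039 with quantile normalization, 0.039 in the deposited log2 values, 0.051 with normexp and 0.39 with no scaling. *Fabp4* was thus higher relative to the array, by between 0.32 and 0.51 under the settings that scale the arrays. With no scaling its difference was 0.89. For *Fabp5* no direction can be given. No spot on either array was saturated.

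**Figure D3:**
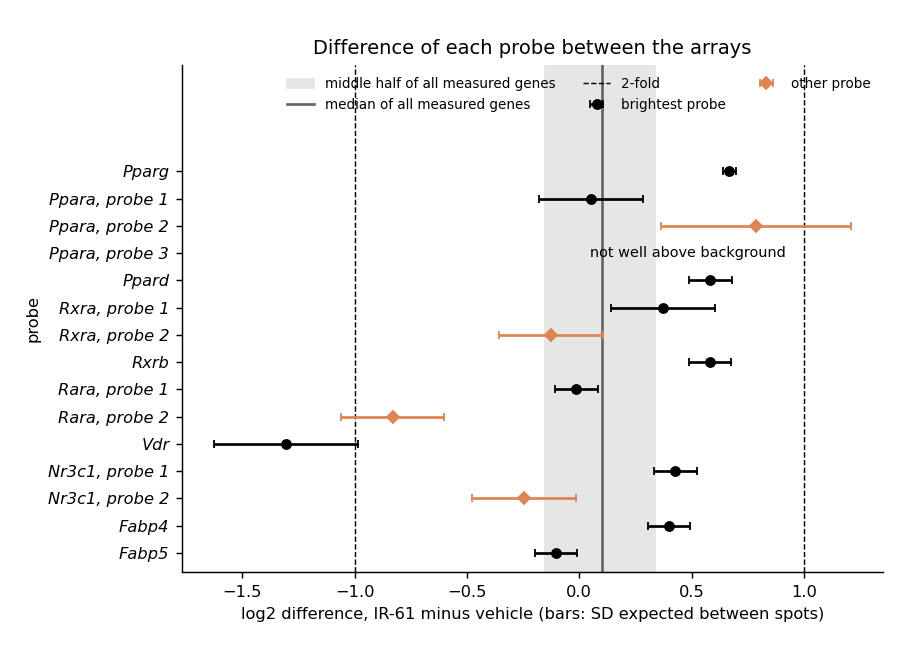
Log2 difference, IR-61 minus vehicle, of each probe, with the brightest probe of a gene in black and other probes in orange; bars are the SD expected between spots, the grey band the middle 50% of all measured genes, the grey line their median of 0.10 and the dashed lines 2-fold. *Pparg*, *Ppard*, *Rxrb* and a dim *Ppara* probe lie farthest right, *Vdr* lies beyond 2-fold on the left at −1.31, and the probes of *Rxra* and *Nr3c1* fall on both sides of 0.

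Of the 15 probes 14 were measured, 8 with a positive and 6 with a negative difference. The 4 genes with 2 measured probes were *Ppara*, *Rxra*, *Rara* and *Nr3c1*, and in *Rxra* and *Nr3c1* the signs were opposite. Disagreement of this kind was common on these arrays. Of 3497 genes with 2 measured probes, 42.0% had probes of opposite sign and 32.1% had a gap of 0.5 or more. The brighter probe had the higher difference in 63.4% of those genes, by a median of 0.14, and in 3 of the 4 receptor genes, all but *Ppara*. When the measured probes of a gene were averaged in place of taking the brightest, the median of the 10 genes was 0.26 and those of *Rxra*, *Rara* and *Nr3c1* came to 0.12, −0.42 and 0.09, while that of *Ppara* came to 0.42 in place of 0.05. *Pparg*, *Ppard*, *Rxrb*, *Vdr*, *Fabp4* and *Fabp5* each rest on 1 probe, so for them no second probe bears on the value.

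**Figure D4:**
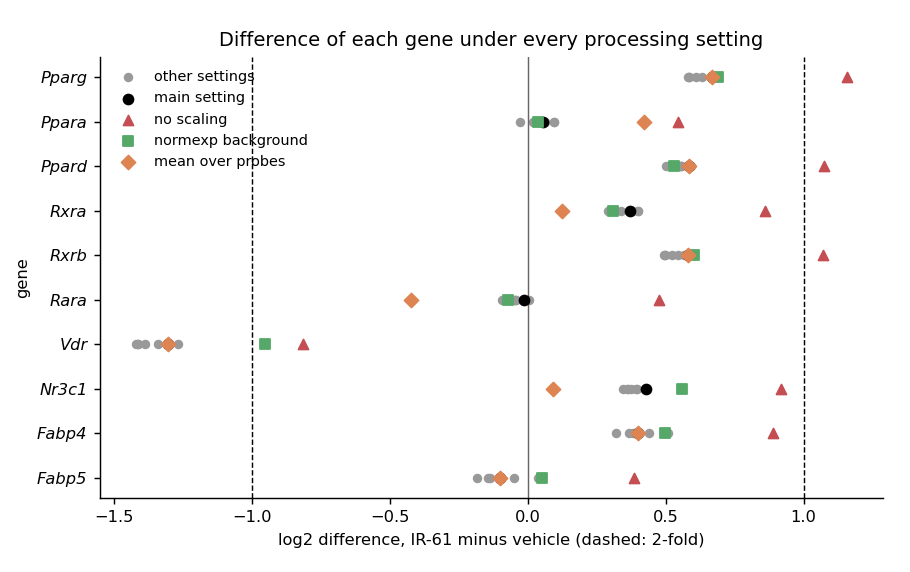
Log2 difference of each gene under the main setting and each alternative, with no scaling, normexp background correction and the mean over probes marked apart; the dashed lines mark 2-fold. *Pparg*, *Ppard*, *Rxra*, *Rxrb*, *Nr3c1* and *Fabp4* stay right of 0 and *Vdr* left of it throughout, while *Ppara*, *Rara* and *Fabp5* cross 0.

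The cells were checked against markers. All 7 named macrophage markers were well above background on both arrays, between 1002 and 120586 with vehicle and between 790 and 149992 with IR-61, and their median difference was −0.09. They did not move together, since *Adgre1*, which encodes F4/80, had a difference of 1.03 and *Spi1*, the myeloid transcription factor PU.1, of −0.83. Their summed signal before scaling was 312495 and 508436. Of 6 adipocyte markers 2 were measured on both arrays, *Adipoq*, *Lep* and *Cidea* were on neither well above background, and the summed signal of the list was 95.2 with vehicle and 154 with IR-61. *Plin1*, the lipid droplet coat protein of adipocytes, was dim at 16.9 and 52.0, a difference of 1.13 (SD from spots 0.42), and *Retn* had a difference of −0.33. All 5 fibroblast markers were measured on both arrays, with a summed signal of 59718 with vehicle and 104718 with IR-61. *Col1a1* among them read 27148 and 58670, a difference of 0.62, and *Dcn* had a difference of −0.10. Of 6 lymphocyte markers 5 were measured, none brighter than 1354 with vehicle or 2003 with IR-61 and with a sum of 2621 and 3452. *Cd3g* was on neither array well above background, and *Ms4a1* had a difference of −1.46. The part of these markers in the differences of the receptors was not tested.

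Around the 10 genes, lists of related genes describe the rest of the pathway. Their counts of each sign are read beside the 61.1% of all measured genes at −0.00032 or higher. Of 24 other nuclear receptors 21 were measured on both arrays, 16 with a positive and 5 with a negative difference, and their median was 0.16, near that of all genes. None was higher by 2-fold and 2 were lower, both close to the limit. *Rarg*, another retinoic acid receptor, read 3502 with vehicle and 2406 with IR-61, a log2 difference of −1.03 (SD from spots 0.095). *Nr4a1*, an immediate early orphan receptor also called Nur77, read 1264 and 870, a difference of −1.03 (SD from spots 0.16). With no scaling both were at −0.54, and *Nr4a1* also fell short of 2-fold with normexp, at −0.97, and with a row and column trend removed, at −0.99. At the other end was *Rarb*, a retinoic acid receptor whose gene is itself a target of retinoic acid, at 278 and 640 and a difference of 0.71 (SD from spots 0.23), although its dimmer probe gave −0.15. The retinoic acid receptors thus had differences of both signs on these arrays.

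Of 12 other lipid-binding proteins 11 were measured, 9 with a positive and 2 with a negative difference, with a median of 0.29, which was 0.072 with normexp background correction. *Fabp7*, the brain-type fatty acid-binding protein, read 6701 with vehicle and 31276 with IR-61. Its log2 difference of 1.73 (SD from spots 0.095), a 3.33-fold higher signal, was the highest of all the genes in these lists and in size exceeded that of every one of the 10 genes, and it rests on 1 culture per condition like the others. The lowest was *Dbi*, the acyl-CoA-binding protein, at −0.09 and at 0.40 with no scaling, and its dimmer probe gave −0.14.

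The genes that PPARs are known to induce had differences of both signs. Of 23 PPAR targets 22 were measured on both arrays, 10 with a positive and 12 with a negative difference, and their median was −0.06. *Angptl4*, a secreted inhibitor of lipoprotein lipase, read 6980 with vehicle and 3757 with IR-61, a log2 difference of −1.38 (SD from spots 0.095) or 2.61-fold lower. *Lpl*, lipoprotein lipase itself, read 28220 and 63723, a difference of 0.69 (SD from spots 0.095), while its dimmer probe, at 11650 and 15007, gave −0.12. *Pdk4*, a kinase that restrains pyruvate oxidation, was not well above background with vehicle, at 12.9, and read 45.1 with IR-61. After scaling, these signals gave a 2.50-fold higher value, a log2 difference of 1.32 (SD from spots 0.42). *Cpt1a*, the rate-limiting enzyme of fatty acid entry into mitochondria, is printed 10 times like *Pparg*. It read 3079 and 2578, a difference of −0.75 (SD from spots 0.030) or 1.68-fold lower, and its dimmer probe gave −0.50. *Slc25a20*, the carnitine-acylcarnitine carrier of the same route, read 466 and 352, a difference of −0.89 (SD from spots 0.23). In *Cd36*, the fatty acid translocase, and *Plin2*, the lipid droplet coat protein, the differences were −0.04 and −0.33. The median of this list was 0.43 with no scaling, which again lay below the median of 0.59 that all genes then had.

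The enzymes and targets of the receptors' ligands had medians a little below 0. Of 12 genes of retinoic acid synthesis, breakdown and response 11 were measured, 4 with a positive and 7 with a negative difference, and the median was −0.18. *Aldh1a3*, a retinaldehyde dehydrogenase that makes retinoic acid, read 191 with vehicle and 97.5 with IR-61, a log2 difference of −1.46 (SD from spots 0.23) or 2.75-fold lower. *Cyp26b1*, which breaks retinoic acid down, read 35.5 and 105, a difference of 1.07 (SD from spots 0.36) or 2.11-fold higher. Its value was 0.25 with normexp background correction, and it also fell short of 2-fold with scaling by the median, at 0.99, with quantile normalization or loess, at 0.94, and in the deposited log2 values, at 0.95. Other enzymes of these steps differed less. *Aldh1a1* and *Aldh1a2*, which also make retinoic acid, were at −0.10 and −0.19, and *Cyp26a1*, which also breaks it down, was at −0.44 (SD from spots 0.42).

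All 8 genes of vitamin D synthesis, breakdown and response were measured, 3 with a positive and 5 with a negative difference and a median of −0.16. *Txnip*, the thioredoxin-interacting protein, read 7390 with vehicle and 4051 with IR-61, a log2 difference of −1.36 (SD from spots 0.095), and its dimmer probe gave −1.34. Like *Vdr* it was lower by more than 2-fold. *Cyp24a1*, the vitamin D hydroxylase that calcitriol strongly induces, was dim at 25.9 and 54.2, with a difference of 0.58 and an SD from spots of 0.42, and came to −0.032 with normexp background correction.

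Of 15 genes of glucocorticoid activation and response all were measured, 6 with a positive and 9 with a negative difference and a median of −0.12, and none passed 2-fold. The lowest was *Cdkn1a*, the cell cycle inhibitor p21, at 1064 and 758 and a log2 difference of −0.98 (SD from spots 0.053), although its much dimmer probe gave 0.50. It passed 2-fold with scaling by the median, at −1.06, or by the 75th percentile over detected probes, at −1.01. With the mean over its probes it was −0.24. The highest was *Per1*, a clock gene with a glucocorticoid response element, at 1749 and 3403 and a difference of 0.47 (SD from spots 0.095). *Tsc22d3*, the glucocorticoid-induced leucine zipper, had a difference of 0.15 and *Fkbp5*, a feedback regulator of the receptor, of −0.39. The 8 chaperones of the glucocorticoid receptor had 4 positive and 4 negative differences and a median of −0.06, which was 0.012 with quantile normalization or in the deposited log2 values. Their range was narrow, from −0.67 for *Stub1*, a ubiquitin ligase of chaperone clients, to 0.27 for *Ptges3*, the co-chaperone p23, whose 4 probes spread from −0.33 to 0.27 and averaged −0.070.

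The 17 coactivators and corepressors of nuclear receptors were all measured, 13 with a positive and 4 with a negative difference, with a median of 0.30 and none beyond 2-fold. *Ncoa3*, a steroid receptor coactivator, read 4573 with vehicle and 11592 with IR-61, a log2 difference of 0.85 (SD from spots 0.095), while its dimmer probe, at 123 and 118, gave −0.55. *Nrip1*, a corepressor also called RIP140, read 624 and 500, a difference of −0.81 (SD from spots 0.23). The median of the cofactors was 0.10 with the mean over the measured probes, close to the 0.078 that all genes then had. No list was tested, and each is a description of a single pair of cultures.

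**Figure D5:**
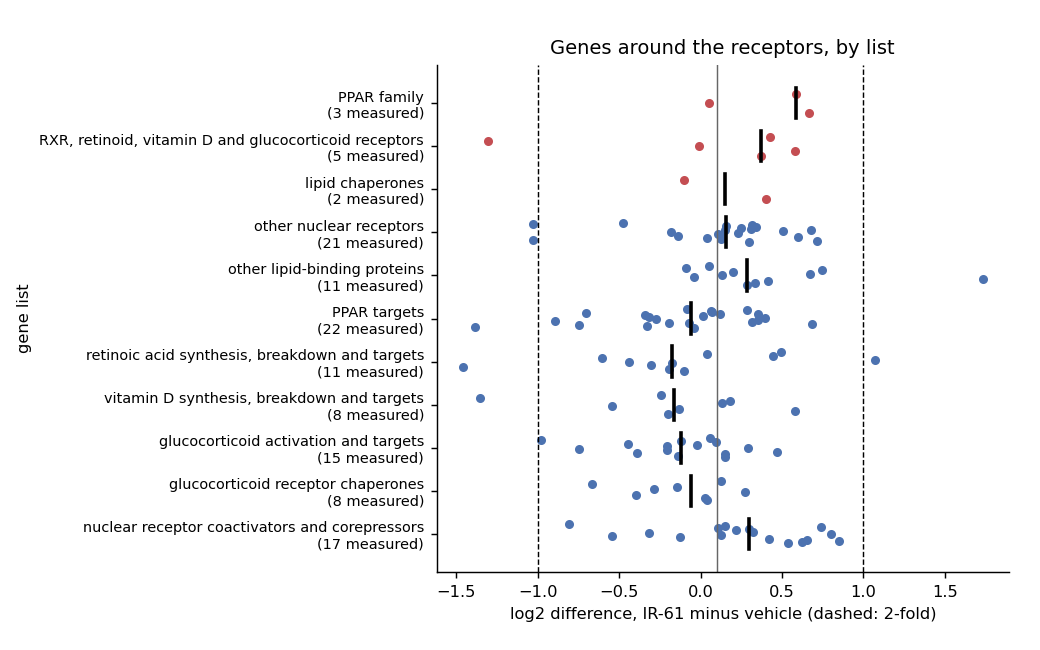
Each point is the log2 difference, IR-61 minus vehicle, of 1 measured gene, with the 10 genes of the set in red and genes of related lists in blue; black ticks are list medians, the grey line the median of all measured genes at 0.10 and the dashed lines 2-fold. The PPAR targets centre on −0.06, left of the PPAR family, and *Fabp7* is the point farthest right, at 1.73.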

How the data were processed

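RNA of RAW264.7 cells kept with IR-61, or with vehicle control, for 24 h was labelled with Cy3 and hybridized to single-colour Agilent mouse arrays, 1 culture and 1 array per condition, grouped by the sample labels. The authors deposited the intensity of each spot as Agilent Feature Extraction gives it, background-subtracted and detrended, with flags. The file headers name version 11.0.1.1 and the submitters' processing notes 11.0.0.1. A table of log2 values per probe was also deposited, whose columns share their quartiles (4.59 and 10.66). How they were made is not given in the sources used here. Their differences were close to those with quantile normalization, at 0.554 in both for *Ppard* and 0.039 in both for *Fabp5*. The deposited values and quantile normalization are therefore not separate checks. The identity of the columns was checked against the scanner values (Pearson r across probes 0.9995 for vehicle and 0.9988 for IR-61).

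Of 44397 spots per array, 43020 were not controls and belonged to 39429 probes. Spots flagged as outliers (124 with vehicle, 139 with IR-61) were left out where the probe had an unflagged spot and kept otherwise. The alternative with outlier spots kept thus differs only for probes with an unflagged spot. The log2 intensities of a probe's spots were averaged, and the 75th percentile over all non-control probes was subtracted per array. Probes were named through RefSeq accessions (table of GRCm38.p6), 27234 of them for 20659 genes, 5476 with several probes. A gene took its brightest unsaturated probe. A probe counted as well above background where more than 50% of its spots carried that flag, which held for 77.6% of probes with vehicle and 81.2% with IR-61. A probe below it on 1 array was counted as a bound. Its dim side was set to its own signal or, if that is higher, to the lowest signal that counted as above background there (12.8 and 15.0). Where its own signal was used, the value is the plain difference and not a minimum. Both arrays measured 16889 genes. Bounds only were had for 145 lower and 739 higher genes, 42 gave no fold and 2844 were at background.

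The number of arrays limits precision, and with 1 array per condition no test was run. Genes and lists were chosen with earlier results of these data known. Named were all 10 genes, and from each related list the largest difference each way and any gene at 2-fold or more. *Rxrg*, *Pdk4*, *Cpt1a*, *Slc25a20*, *Cd36*, *Plin2*, *Aldh1a1*, *Aldh1a2*, *Cyp26a1*, *Tsc22d3*, *Fkbp5* and the markers with values were added after their values were seen. Of the marker genes *Cd68* was not named on the array. Alternatives were other scalings, quantile normalization, loess, no scaling, the deposited log2 values, normexp with an offset of 50, the mean over probes, outlier spots kept, a row and column trend removed, filters on dim probes and a 1.5-fold limit. The steps were tested on 1 simulated IR-61 array. Its seeded changes were larger than any difference of the 10 genes, so it does not bear on smaller ones. Computation was in Python 3.11.15 (pandas 2.3.3, numpy 2.4.6, matplotlib 3.10.9, and statsmodels 0.14.6 for loess) and, for normexp, limma 3.58.1 under R 4.3.3.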

Additional observations from a re-analysis of the deposited data

How the results depend on the processing

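The median log2 difference of the 10 genes was 0.39, and 0.88 with no scaling and 0.26 with the mean over the measured probes. The number lower by 2-fold or more was 1 in the main setting, beside 1.40% of all genes. It was 0 with no scaling and 0 with normexp, beside 0.43% and 0.89%. The number higher by 2-fold or more was 0 in the main setting, beside 2.0% of all genes, and 3 with no scaling, beside 12.8%. At the 1.5-fold limit 1 gene was higher, beside 9.79% of all genes. Relative to the median of all genes, the median of the 10 was higher by 0.18 to 0.43 under the settings tried. *Fabp5*, at −0.10, came to 0.039 with quantile normalization, 0.39 with no scaling, 0.039 in the deposited log2 values and 0.051 with normexp. With normexp *Cyp24a1* came to −0.032, and with the mean over probes *Ptges3* to −0.070. With no scaling the median of the glucocorticoid list was 0.37, and those of PPAR targets, retinoic acid, vitamin D and chaperone genes were 0.43, 0.31, 0.32 and 0.43, all positive but below the 0.59 of all genes. No scaling adds 0.49 to every difference by construction, and with it *Angptl4*, *Aldh1a3* and *Txnip*, at −0.89, −0.97 and −0.87, fell short of 2-fold. For the other settings the cause was not tested. Of the remaining values for single genes and lists, 349 moved by less than the spread between spots and 62 by more. Small values crossed 0 in both groups, among them *Rara* at 0.48 with no scaling and 0.0035 with a row and column trend removed, *Ppara* at −0.03 with scaling by the median, and *Dbi* at 0.40 with no scaling. Over all measured genes the split of lower to higher at 2-fold was 236 to 337, and 297 to 250 with scaling by the median, 73 to 2158 with no scaling, 150 to 125 with normexp, 282 to 268 in the deposited values, 441 to 920 with no filter on dim probes and 188 to 199 with a stricter one. Normexp was run on the median signal of each spot, since the files hold no mean signal, and 4 spots of the IR-61 array with a background above their signal were given the median background. No paired analysis was possible because the comparison rests on a single array of each kind. Signal over background limits *Vdr*, *Cyp26b1*, *Cyp24a1* and the dimmer *Ppara* probes most.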
